A study of Mus musculus with 24 samples.

Results

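The enzymes of the pentose phosphate pathway and the other main cytosolic sources of NADPH were followed in liver RNA as 7 genes: G6pdx, H6pd, Pgd, Taldo1, Tkt, Me1 and Idh1. The genes were found by symbol among the 15160 genes of the count table, and all 7 passed the filter on low counts that left 13336 genes to be tested. The libraries come from the livers of male mice aged 5 months, 1 library for each animal, of 2 genotypes (WT and NRF2 KO) that were each fed 1 of 2 diets (Con and MR). WT mice were homozygous for a floxed Nfe2l2 allele (NRF2fl/fl), and NRF2 KO mice, labelled NRF2fl/(alb), were their littermates with Alb-cre in addition, so the floxed allele was shared by all groups and the deletion was limited to cells that use the albumin promoter. The Con diet held 0.86% methionine and the methionine-restricted (MR) diet 0.17%. Both diets lacked cysteine. By the labels they were fed for 8 weeks from 8 weeks of age, and by the study's methods a period of calorimetry and of re-equilibration in home cages came between those weeks and the harvest of the liver, which followed a 4 h fast. Of 6 mice per group, 1 WT Con and 1 WT MR mouse that the study treated as outliers were left out, which leaves 5, 5, 6 and 6 mice.

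NADPH is the electron donor that liver cells use to keep glutathione and thioredoxin reduced and to build fatty acids and cholesterol. G6pdx encodes glucose-6-phosphate dehydrogenase, the entry enzyme of the oxidative arm of the pathway, and Pgd encodes the dehydrogenase that makes NADPH a second time further down that arm. H6pd carries out the same entry reaction inside the endoplasmic reticulum. Tkt (transketolase) and Taldo1 (transaldolase) form the non-oxidative arm, which makes no NADPH itself and exchanges carbon between pentoses and glycolytic sugars. Me1 (malic enzyme) and Idh1 (isocitrate dehydrogenase) make NADPH in the cytosol from malate and isocitrate. NRF2, the product of Nfe2l2, is a transcription factor known for switching on genes of this pathway and of glutathione metabolism.

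Libraries held between 6197291 and 22068338 counts on genes. Levels are CPM, in which edgeR's TMM method sets every library to the same size, and each count comes from the 3′ end of a transcript, so CPM values are compared between groups for 1 gene and not between genes. A gene was called at an adjusted p under 0.05, from edgeR's quasi-likelihood F-test adjusted by Benjamini and Hochberg's method over the 13336 genes. Reads at the 3′ end of Nfe2l2 do not check the deletion, because the sources do not say whether the excised part of exon 5 reaches the counted end. They ran from 94.0 to 125 CPM in 9 of the 10 WT libraries and from 202 to 339 CPM in the NRF2 KO libraries, while the library labelled WT_CON_7607 had 324 CPM. By this measure that library stands with the NRF2 KO libraries and against its label, so the called values of the 7 enzymes that rest on WT Con, and those it moved most, are also given without it, as are other named genes whose call depends on it. The study states that it checked the genotype of every mouse by real-time PCR. With primers for exon 5, it found less Nfe2l2 mRNA in NRF2 KO than in WT livers. The 10 hepatocyte markers summed to 84719 to 112861 CPM in WT Con, 74956 to 90600 CPM in WT MR, 108395 to 127258 CPM in NRF2 KO Con and 93138 to 114608 CPM in NRF2 KO MR. Fewer cells of a type and less RNA per cell cannot be told apart in whole liver.

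Tkt carried the clearest differences of the 7 enzymes. It was higher on MR than on Con in WT mice and was not higher on MR in NRF2 KO mice. The interaction of diet and genotype was not called for Tkt. Its call with MR in WT mice was lost in 5 of 22 fits that each left out 1 mouse. On the MR diet its mean level in NRF2 KO mice was 0.494 times that in WT mice. Taldo1 was lower on MR in NRF2 KO mice and when both genotypes were averaged. H6pd, Me1 and Tkt were lower in NRF2 KO than in WT mice when both diets were averaged. No difference of G6pdx, Pgd or Idh1 was called in any of the 7 comparisons.

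In the non-oxidative arm, Tkt (ENSMUSG00000021957, chromosome 14, plus strand, 30548359 to 30574720 in GENCODE M21 on GRCm38) had 77.2, 87.9, 94.5, 66.1 and 113 CPM in the 5 WT Con mice. The 5 WT MR mice had 135, 131, 111, 127 and 151 CPM. Of these, 4 lay above every WT Con mouse, and the fifth lay just under the highest WT Con value. In NRF2 KO Con mice Tkt ranged from 46.0 to 99.3 CPM with a median of 81.1. In NRF2 KO MR mice it ranged from 54.3 to 75.7 CPM with a median of 62.0. All 6 NRF2 KO MR mice lay below all 5 WT MR mice, while the NRF2 KO MR and NRF2 KO Con mice overlapped throughout.

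The group means of Tkt were 87.6 ± 17.6 CPM in WT Con (SD, n = 5), 131 ± 14.5 CPM in WT MR (n = 5), 77.1 ± 21.2 CPM in NRF2 KO Con (n = 6) and 64.7 ± 9.09 CPM in NRF2 KO MR (n = 6). MR raised Tkt in WT mice by a log2 fold change of 0.58 (SE 0.17, adjusted p = 0.0276 in edgeR's test). In NRF2 KO mice the log2 fold change with MR was -0.26 (95% interval -0.58 to 0.07, adjusted p = 0.31). Between genotypes the log2 fold change was -0.18 on Con (95% interval -0.52 to 0.15, adjusted p = 0.666) and -1.02 on MR (SE 0.16, adjusted p = 0.000772). The difference on MR ranked at position 48 among the genes tested by p. Averaged over diets Tkt was lower in NRF2 KO mice by a log2 fold change of -0.60 (SE 0.12, adjusted p = 0.00224 in edgeR's test). The interaction, which tests whether the effect of MR differed between genotypes, was -0.83 for Tkt (95% interval -1.31 to -0.35, unadjusted p = 0.00159), and with an adjusted p of 0.301 it was not called. Without the library labelled WT_CON_7607 it was -0.75 (adjusted p = 0.438).

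The higher Tkt on MR in WT mice rested on single libraries more than the difference between genotypes did. It was no longer called without WT_CON_7602 (log2 fold change 0.53, adjusted p = 0.0602 in edgeR's test), WT_CON_7603 (0.58, 0.0529), the library labelled WT_CON_7607 (0.50, 0.0733), WT_MR_7609 (0.57, 0.0554) or WT_MR_7616 (0.52, 0.0701). The lower Tkt in NRF2 KO mice on MR was called in each of the 22 fits that left out 1 mouse and under the 8 other settings, with log2 fold changes between -1.08 and -0.97.

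**Figure D1:**
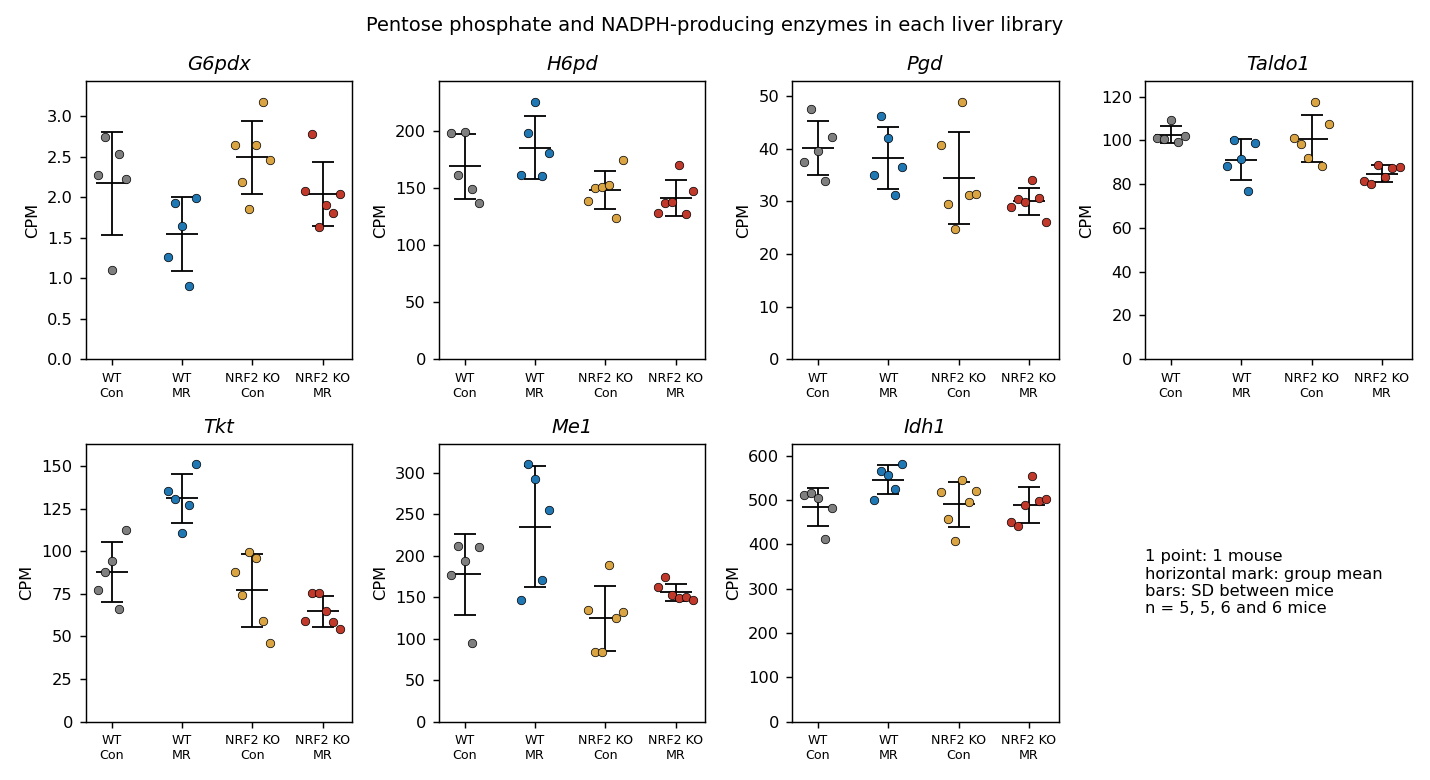
CPM of each of the 7 enzymes in each mouse, 1 panel per gene with its own axis from 0, for the 4 groups; points are mice, horizontal marks are group means and bars are SD. In the Tkt panel the 6 NRF2 KO MR mice sit between 54.3 and 75.7 CPM, below the WT MR mice at 111 to 151 CPM, while in the other panels the 2 genotypes on 1 diet, and the 2 diets in 1 genotype, overlap.

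Taldo1 (ENSMUSG00000025503, chromosome 7, plus strand, 141392199 to 141402968) varied little between mice. The WT Con values were 101, 100.8, 109, 99.1 and 102 CPM, and the WT MR values were 88.5, 100.1, 91.4, 76.7 and 99.0 CPM, so 4 of 5 WT MR mice lay below every WT Con mouse. NRF2 KO Con mice ran from 88.1 to 118 CPM with a median of 99.7, and NRF2 KO MR mice from 80.1 to 88.9 CPM with a median of 85.5. In NRF2 KO mice 5 of 6 MR mice lay below every Con mouse.

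With MR Taldo1 fell in NRF2 KO mice by a log2 fold change of -0.25 (SE 0.07, adjusted p = 0.025 in edgeR's test). In WT mice the value was -0.17 (95% interval -0.33 to -0.01), which did not pass after adjustment (adjusted p = 0.159). Averaged over both genotypes the decrease was -0.21 (SE 0.05, adjusted p = 0.00518), and the interaction was -0.08 (95% interval -0.30 to 0.14), so a different response of the genotypes was not shown. The averaged decrease was called in each of the 22 fits without 1 mouse, at -0.23 to -0.18, and was lost under library size scaling (-0.08, adjusted p = 0.244). NRF2 KO and WT mice differed in Taldo1 by -0.03 on Con (95% interval -0.18 to 0.13) and by -0.10 on MR (95% interval -0.26 to 0.05). The call in NRF2 KO was lost without KO_CON_7617, KO_CON_7621, KO_MR_7625 or KO_MR_7627, with adjusted p between 0.0517 and 0.0719, and with all 24 mice (adjusted p = 0.0547). Scaling by library size alone moved the median of all genes by 0.152 for MR in NRF2 KO, and Taldo1 was then at -0.09 with an adjusted p of 0.401.

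Markers of macrophages, stellate cells and bile duct cells were also lower on MR, the direction in which Taldo1 moved. Of 10 macrophage markers, 6 were called lower on MR in WT mice, where 6.91% of all genes were, and 3 in NRF2 KO mice, where 6.34% were, and their summed level was 421 to 573 CPM in WT Con, 332 to 383 CPM in WT MR, 374 to 537 CPM in NRF2 KO Con and 314 to 421 CPM in NRF2 KO MR. Of 8 stellate cell markers, 6 were called lower in WT and 4 in NRF2 KO, and without the library labelled WT_CON_7607 the counts in WT were 5 macrophage and 4 stellate cell markers. Of 5 bile duct markers tested, 4 were called lower in WT and 1 in NRF2 KO, with a summed level of 49.0 to 72.6 CPM in WT Con, 20.9 to 28.3 CPM in WT MR, 31.7 to 53.1 CPM in NRF2 KO Con and 20.6 to 29.0 CPM in NRF2 KO MR. The part of these cells in the Taldo1 values was not tested. On the MR diet, where Tkt was lower in NRF2 KO mice, the summed hepatocyte markers of the NRF2 KO mice lay above those of all WT mice, with 1 of the 10 called higher. The part of hepatocyte content in the Tkt values was not tested.

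In the oxidative arm, G6pdx (ENSMUSG00000031400, chromosome X, minus strand, 74409483 to 74429194) was near the detection range of these libraries, with 6 to 53 reads per library. WT Con mice had 2.27, 2.74, 1.10, 2.53 and 2.23 CPM, and WT MR mice had 1.26, 1.92, 1.64, 0.904 and 1.99 CPM. NRF2 KO Con mice ran from 1.86 to 3.18 CPM with a median of 2.55, and NRF2 KO MR mice from 1.64 to 2.78 CPM with a median of 1.97. The groups overlapped in each comparison. The log2 fold change with MR was -0.43 in WT (95% interval -0.92 to 0.05) and -0.29 in NRF2 KO (95% interval -0.71 to 0.12). Averaged over genotypes it was -0.36 (95% interval -0.68 to -0.04, adjusted p = 0.0843 in edgeR's test). NRF2 KO differed from WT by 0.21 on Con (95% interval -0.23 to 0.64) and by 0.35 on MR (95% interval -0.12 to 0.81), so at this depth neither a rise of the size of the upper bound nor a small fall can be told from no change. G6pdx lies inside Ikbkg, which is on the opposite strand. No exon of Ikbkg overlaps the last exon of G6pdx, and whether the counting used strand is not stated.

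Pgd (ENSMUSG00000028961, chromosome 4, minus strand, 149149991 to 149166771) had 37.4, 47.6, 39.7, 33.8 and 42.2 CPM in WT Con mice and 35.1, 46.2, 42.0, 31.2 and 36.6 CPM in WT MR mice. NRF2 KO Con mice ran from 24.7 to 49.0 CPM with a median of 31.4, and NRF2 KO MR mice from 26.0 to 34.1 CPM with a median of 30.2. On MR, 5 of 6 NRF2 KO mice lay below the lowest WT mouse. The log2 fold change between genotypes was -0.35 on MR (95% interval -0.63 to -0.07, adjusted p = 0.209 in edgeR's test) and -0.22 on Con (95% interval -0.50 to 0.06). Averaged over diets it was -0.29 (95% interval -0.48 to -0.09, adjusted p = 0.079). Diet moved Pgd by -0.06 in WT (95% interval -0.36 to 0.23) and by -0.20 in NRF2 KO (95% interval -0.46 to 0.07).

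H6pd (ENSMUSG00000028980, chromosome 4, minus strand, 149979475 to 150009023), the enzyme of the endoplasmic reticulum, had 198, 161, 199, 149 and 137 CPM in WT Con mice and 161, 199, 226, 161 and 181 CPM in WT MR mice. NRF2 KO Con mice ran from 124 to 174 CPM with a median of 151, and NRF2 KO MR mice from 127 to 169.9 CPM with a median of 138. On MR, 5 of 6 NRF2 KO mice lay below the lowest WT mouse, and the genotypes overlapped on both diets. Averaged over diets H6pd was lower in NRF2 KO mice by a log2 fold change of -0.29 (SE 0.08, adjusted p = 0.0274 in edgeR's test). On MR alone the value was -0.39 (95% interval -0.62 to -0.17, adjusted p = 0.0608), and on Con it was -0.19 (95% interval -0.41 to 0.04). The averaged call was lost in 5 of the 22 fits that left out 1 mouse (WT_CON_7602, WT_CON_7605, WT_MR_7611, WT_MR_7613 or KO_MR_7625), with adjusted p up to 0.0609. MR moved H6pd by 0.13 in WT (95% interval -0.10 to 0.37) and by -0.07 in NRF2 KO (95% interval -0.29 to 0.15).

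**Figure D2:**
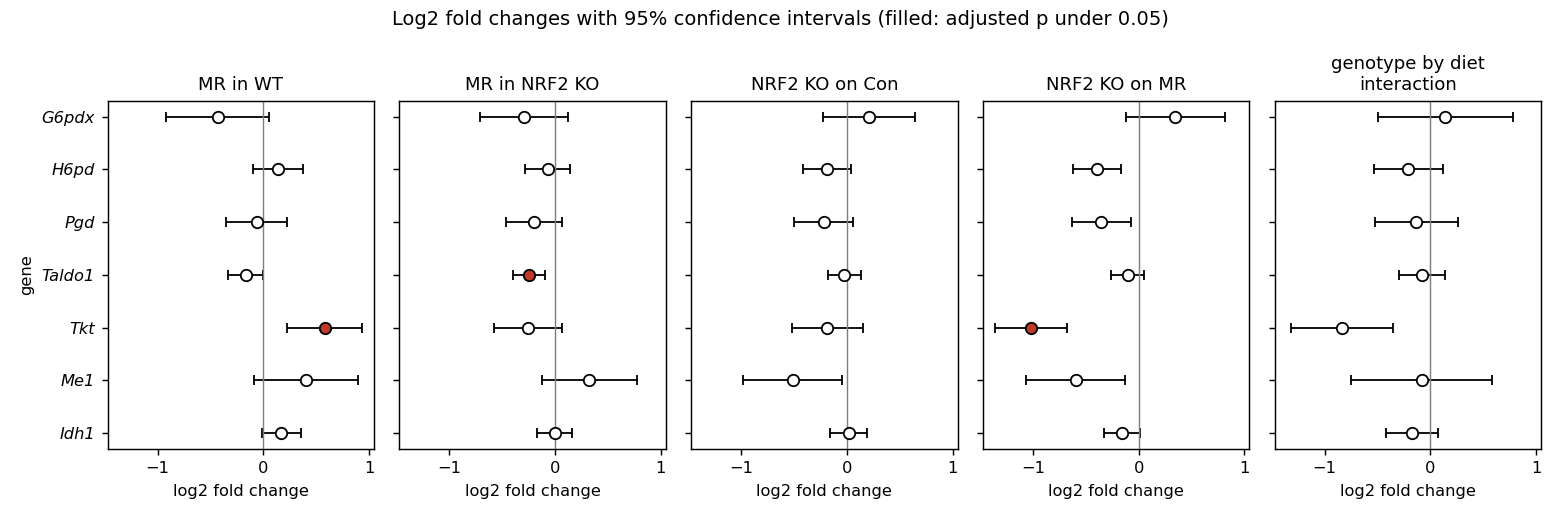
Log2 fold change (horizontal axis) of each enzyme (vertical axis) with its 95% interval, in 1 panel for each effect of diet, each effect of genotype and their interaction; filled points have an adjusted p under 0.05. The 3 filled points are Tkt for MR in WT at 0.58, Taldo1 for MR in NRF2 KO at -0.25 and Tkt for NRF2 KO on MR at -1.02.

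Among the other cytosolic sources of NADPH, Me1 (ENSMUSG00000032418, chromosome 9, minus strand, 86581371 to 86695953) varied widely between mice in 3 of the 4 groups. WT Con mice had 177, 211, 194, 94.9 and 210.4 CPM, of which 94.9 CPM belongs to the library labelled WT_CON_7607. WT MR mice had 147, 310.2, 293, 170.3 and 255 CPM. NRF2 KO Con mice ran from 83.8 to 189 CPM with a median of 129, and NRF2 KO MR mice from 146 to 174 CPM with a median of 151. The coefficient of variation was 27.2%, 31.1% and 31.2% in the first 3 of these groups and 6.77% in NRF2 KO MR.

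Averaged over diets, Me1 was lower in NRF2 KO mice by a log2 fold change of -0.55 (SE 0.16, adjusted p = 0.0463 in edgeR's test). The values on the single diets, -0.51 on Con (95% interval -0.98 to -0.04, adjusted p = 0.294) and -0.59 on MR (95% interval -1.06 to -0.12, adjusted p = 0.211), were alike in size and did not pass. The averaged call was near the threshold: it was kept in 4 of the 22 fits without 1 mouse and lost in the other 18, with log2 fold changes from -0.63 to -0.49 and adjusted p up to 0.0865. It was kept without the library labelled WT_CON_7607 (-0.63, adjusted p = 0.00785) and under 4 of the 7 other settings. With all 24 mice Me1 was at -0.46 (adjusted p = 0.0954), and Pgd was called there (-0.36, adjusted p = 0.0281). With MR the log2 fold change of Me1 was 0.41 in WT (95% interval -0.09 to 0.90), 0.32 in NRF2 KO (95% interval -0.13 to 0.77) and 0.36 averaged over genotypes (95% interval 0.03 to 0.70, adjusted p = 0.0965).

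Idh1 (ENSMUSG00000025950, chromosome 1, minus strand, 65158616 to 65186500) was measured with 3489 to 11880 reads per library. WT Con mice had 512, 515, 505, 412 and 481 CPM, and WT MR mice had 499.9, 566, 557, 526 and 581 CPM, of which 4 lay above every WT Con mouse. NRF2 KO Con mice ran from 407 to 545 CPM with a median of 506, and NRF2 KO MR mice from 442 to 554 CPM with a median of 492. The log2 fold change with MR was 0.17 in WT (95% interval -0.01 to 0.35, adjusted p = 0.202 in edgeR's test) and 0.00 in NRF2 KO (95% interval -0.17 to 0.16). Between genotypes it was 0.02 on Con (95% interval -0.16 to 0.19) and -0.16 on MR (95% interval -0.33 to 0.01). These intervals leave room for changes of Idh1 of at most 0.35 in either direction on the log2 scale in the 4 comparisons of single groups.

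The library labelled WT_CON_7607 had the lowest Tkt, Pgd, Taldo1, Me1 and Idh1 of the 5 WT Con libraries. Without it the log2 fold changes for MR in WT were 0.50 for Tkt, 0.25 for Me1 and 0.12 for Idh1, and no enzyme was called in that comparison. For NRF2 KO on Con they were -0.67 for Me1 (adjusted p = 0.0949 in edgeR's test), -0.27 for Tkt and -0.27 for Pgd. The enzymes called lower in NRF2 KO averaged over diets were again H6pd (-0.31), Tkt (-0.65) and Me1 (-0.63).

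Counted over the 7 enzymes, 1 was called (Tkt) for MR in WT, where 13.8% of all genes tested were called, and 1 (Taldo1) for MR in NRF2 KO, where 12.6% were. None was called for NRF2 KO on Con, where 2.07% of all genes were, and 1 for NRF2 KO on MR against 1.93%. For NRF2 KO on Con, 1 of the 7 enzymes (Me1) and 1917 of all genes had an unadjusted p under 0.05, and DESeq2 also called none of the 7. None was called for the interaction, against 0.045% of all genes, where 1 enzyme (Tkt) and 1008 of all genes had an unadjusted p under 0.05 and DESeq2 again called none of the 7. Averaged over genotypes, 1 enzyme was called for MR against 27.4% of all genes, so a diet effect was called no more often among these enzymes than among all genes. Averaged over diets, 3 enzymes were called for NRF2 KO, all lower, against 5.45% of all genes called in either direction and 3.24% called lower. Their median log2 fold change for NRF2 KO averaged over diets was -0.29, and that of all genes tested was 0.00. For non-overlapping groups the count was 1 of 7 (Tkt) for NRF2 KO on MR, where 4.6% of all genes had groups that did not overlap. It was 0 for the other comparisons of single groups, beside 9.32% of all genes for the diet in WT, 5.45% for the diet in NRF2 KO and 1.83% for genotype on Con.

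Across the 22 mice, the log2 CPM of Me1 went with that of Idh1 (Pearson r = 0.72) and of Pgd (r = 0.67), and with the group means taken out these were 0.71 and 0.79. Tkt and Me1 had r = 0.51, which was 0.19 without the group means, and Tkt and Idh1 had 0.34 and -0.06. These values describe mice that share their scaling to depth and are not tested. Among 6889 genes with at least 10 CPM on average, the genes most like Tkt over the 22 mice were Selenbp1 (r = 0.88) and Gm26917 (r = 0.85). Those most like Me1 were Aldh1a7 (r = 0.93) and Ftl1 (r = 0.84), those most like H6pd were Cpeb4 (r = 0.90) and Slc25a17 (r = 0.82), and those most like Taldo1 were Dtx3l (r = 0.89) and Rpn2 (r = 0.84). Aqp8 was among those most like Pgd (r = 0.78). For Idh1 they were Rps2 and Gng12 (both r = 0.77), and for G6pdx Dbi (r = 0.76) and Gng11 (r = 0.75).

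The start sites of the 7 genes were searched for the core letters of the antioxidant response element, the sequence that NRF2 is known to bind, in RefSeq windows of 250 bases before to 50 bases after each annotated start (GRCm38.p6, 10 windows for the 7 genes). The letters searched were TGACNNNGC on either strand, which occur in 12.4% of 32851 such windows and in 14.1% of the 12825 windows of genes tested here. One window each of Me1, G6pdx and Pgd held a match, printed here with the bases around it, the match in capitals and the gene's strand written 5′ to 3′. Counting the first annotated base as 0, the matches begin at -6 for Me1, at -57 for G6pdx (on the other strand) and at 3 for Pgd. The 30 bases shown lie at chr9:86695901-86695930 for Me1, chrX:74428918-74428947 for G6pdx and chr4:149166060-149166089 for Pgd, on the minus strand and touching annotated exons in each case.
Me1: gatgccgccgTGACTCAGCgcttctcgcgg
G6pdx: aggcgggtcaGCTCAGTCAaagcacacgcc
Pgd: atttcagagcTGACATTGCactgatcggac

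The windows of Tkt, H6pd, Taldo1 and Idh1 held no match to these letters. Nor did any of the 10 windows match TGATGNAA, the core of the CEBP-ATF response element bound by ATF4 (4.0% of all windows), or CACGTG, an E-box (7.2% of all windows). The windows of H6pd (chr4:150003187-150003486), Tkt (chr14:30548881-30549180) and G6pdx (chrX:74428831-74429130) lie inside these genes as GENCODE draws them. Their GENCODE 5′ ends, at 150009023 for H6pd, 30548359 for Tkt and 74429194 for G6pdx, were not searched. The Pgd window with the match (chr4:149166033-149166332) also lies inside its gene. The other Pgd window, over the GENCODE 5′ end at 149166771, held no match. Tkt, the gene with the largest difference between genotypes, is shown by the part of its window that touches no annotated exon, on the plus strand at chr14:30548881-30549001, from -250 to -130.
Tkt: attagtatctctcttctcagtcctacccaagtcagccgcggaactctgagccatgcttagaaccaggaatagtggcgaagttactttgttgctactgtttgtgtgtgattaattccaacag
The 3 enzymes with a match include 1 (Me1) called for NRF2 KO averaged over diets and 2 (G6pdx and Pgd) that were not, and the enzymes with no match include Tkt and H6pd, which were. A match or its absence in this window describes the letters and shows nothing about binding.

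The rest of the pentose phosphate pathway moved little. Of 14 further genes listed, 11 were in the table and tested, and Tktl1, Tktl2 and G6pd2 were not in it. None was called for MR in WT, where 13.8% of all genes were. Rpia, which makes ribose 5-phosphate, was called lower with MR in NRF2 KO mice (log2 fold change -0.38, SE 0.11, adjusted p = 0.0224 in edgeR's test) and higher in NRF2 KO mice on Con (0.45, SE 0.11, adjusted p = 0.0345). Without the library labelled WT_CON_7607 the higher value on Con was not called (0.38, adjusted p = 0.0829). Of the 11 genes, 1 was then called higher and 1 lower with MR in NRF2 KO, and 1 lower in NRF2 KO on MR. The levels of Rpia were 6.54 ± 0.945 CPM in WT Con, 6.27 ± 0.958 CPM in WT MR, 8.97 ± 1.13 CPM in NRF2 KO Con and 6.88 ± 0.309 CPM in NRF2 KO MR (SD).

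Several other genes listed around the making of NADPH, or of NADP itself, rose with MR. Of 12 tested, 5 were called higher in WT mice, where 6.91% of all genes were called higher, and 3 in NRF2 KO mice, where 6.23% were. Aldh1l2, the mitochondrial folate enzyme that makes NADPH while releasing CO2, had 0.252 CPM in WT Con and 4.74 CPM in WT MR (log2 fold change 4.17, SE 0.36, adjusted p = 3.67e-08 in edgeR's test), and 0.331 and 3.28 CPM in NRF2 KO mice (3.35, SE 0.32). Its Con levels lie near the detection range of these libraries, so the size of these rises is uncertain. Mthfd2, a mitochondrial dehydrogenase of the folate pathway, rose by 1.89 in WT (SE 0.36) and by 2.68 in NRF2 KO (SE 0.35). Mthfd1l, a ligase of the same mitochondrial pathway that makes no NADPH itself, rose by 1.52 in WT (SE 0.45, adjusted p = 0.029 in edgeR's test). Its value in NRF2 KO was 0.73 (adjusted p = 0.247). Nadk, the cytosolic kinase that makes NADP from NAD, rose by 0.32 in WT (SE 0.07) and by 0.20 in NRF2 KO (SE 0.07, adjusted p = 0.0491). Idh2, the mitochondrial counterpart of Idh1 and named after its values were seen, was the fifth, at 0.42 in WT (SE 0.14, adjusted p = 0.0429), with 0.29 in the NRF2 KO mice (adjusted p = 0.128), and its call in WT was lost without the library labelled WT_CON_7607 (adjusted p = 0.0572). None of the 12 was called between genotypes on either diet, beside 2.07% of all genes on Con and 1.93% on MR. Averaged over diets, 1 was called lower in NRF2 KO, where 3.24% of all genes were. Without the library labelled WT_CON_7607, 1 of the 12 was called lower in NRF2 KO on Con.

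Genes listed around the glutathione and thioredoxin systems, quinones and carbonyls, most of them for enzymes that spend NADPH, moved with both diet and genotype. Of 9 tested, 6 were called higher with MR in WT, where 6.91% of all genes were. With MR in NRF2 KO, 5 were called higher, where 6.23% of all genes were, and 1 lower, where 6.34% were. Between genotypes, 2 were called lower in NRF2 KO on Con, where 1.27% of all genes were, and 6 on MR, where 1.38% were. Cbr1, a carbonyl reductase, is set beside Tkt because it too was called lower in NRF2 KO on MR (-1.19) and not on Con (-0.19). It had 133 ± 52.5 CPM in WT Con, 467 ± 123 CPM in WT MR, 117 ± 29.6 CPM in NRF2 KO Con and 204 ± 30.5 CPM in NRF2 KO MR (SD). Unlike Tkt, Cbr1 was called higher with MR in both genotypes (1.81 and 0.80, adjusted p = 5.9e-05 and 0.0163 in edgeR's test). Its interaction was -1.0 (SE 0.31, adjusted p = 0.412) and, like that of Tkt, was not called. Txnrd1, the cytosolic thioredoxin reductase, was lower in NRF2 KO by -0.64 on Con (SE 0.09) and by -0.90 on MR (SE 0.09). Nqo1, a quinone reductase, was lower by -2.10 on Con (SE 0.35) and by -1.94 on MR (SE 0.28), and rose with MR in both genotypes (1.74 and 1.90). Blvrb, a biliverdin reductase, was lower on MR by -0.56 (SE 0.10) and rose with MR by 0.91 in WT and 0.56 in NRF2 KO.

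Synthesis of fatty acids and cholesterol, which spends NADPH, was followed in 12 genes. Of these, 4 were called higher with MR in each genotype, beside 6.91% of all genes in WT and 6.23% in NRF2 KO. None was called between genotypes, beside 2.07% of all genes on Con and 1.93% on MR. Fdft1 and Lss belong to cholesterol synthesis, and Lss itself uses no NADPH. Fdft1 rose by 0.66 in WT (SE 0.20) and by 0.69 in NRF2 KO (SE 0.18). Lss rose by 0.98 in NRF2 KO (SE 0.24) and was at 0.48 in WT (adjusted p = 0.253 in edgeR's test).

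**Figure D3:**
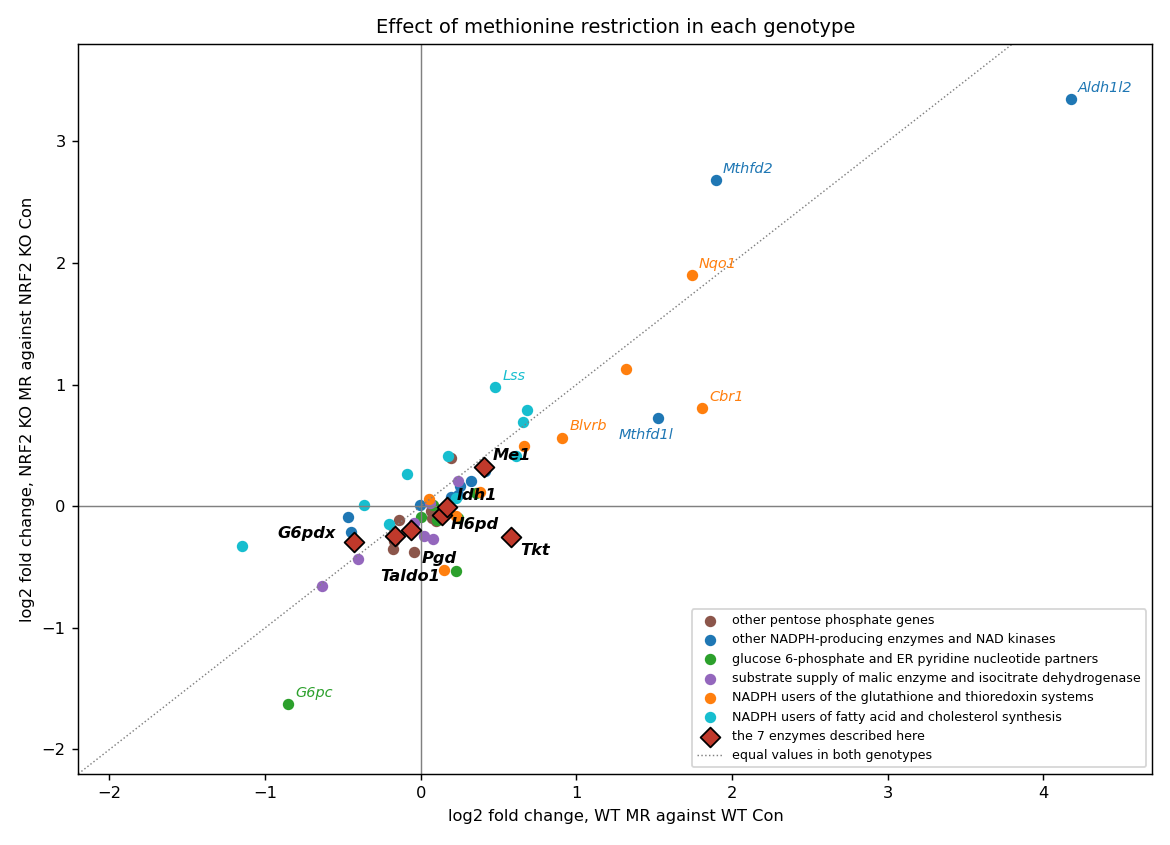
Log2 fold change with MR in WT (horizontal axis) against that in NRF2 KO (vertical axis) for the 7 enzymes (red diamonds) and for genes from 6 lists around them (coloured points), with a dotted line where both are equal. Tkt lies at 0.58 and -0.26, right of and below both zero lines, while Me1 lies at 0.41 and 0.32, and Aldh1l2 lies at 4.17 and 3.35.

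Of 8 genes around glucose 6-phosphate, the substrate of G6pdx and H6pd, 3 were called lower with MR in NRF2 KO mice, where 6.34% of all genes were. None was called in WT mice, where 6.91% of all genes were called lower, and no interaction of the 8 was called. The 3 included G6pc (glucose-6-phosphatase, -1.63, SE 0.27, adjusted p = 0.000788 in edgeR's test) and Fbp1 (fructose bisphosphatase, -0.53, SE 0.13, adjusted p = 0.00723). In WT mice they were at -0.86 and 0.23, and neither interaction was called (unadjusted p of 0.0664 and 0.000422). Gys2, liver glycogen synthase, was higher in NRF2 KO mice on Con by 0.74 (SE 0.12, adjusted p = 0.000739). Of 7 genes that supply the substrates of Me1 and Idh1, 3 were called lower with MR in NRF2 KO, where 6.34% of all genes were. These were Slc25a1, the mitochondrial citrate carrier (-0.27, SE 0.07), Acly, ATP citrate lyase (-0.66, SE 0.20), and Got1, an aspartate aminotransferase (-0.44, SE 0.14). In WT mice they were at 0.08, -0.64 and -0.40 and were not called. Slc25a11, the oxoglutarate carrier, was the 1 of the 7 called in WT mice, at 0.24 (SE 0.08), where 6.91% of all genes were called higher. It was not called without the library labelled WT_CON_7607 (0.19, adjusted p = 0.101 in edgeR's test). In NRF2 KO Slc25a11 was at 0.21, and it was called there without that library (adjusted p = 0.038). No interaction of the 7 was called.

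Among 9 regulators of these genes, Nfe2l2 itself, read at its 3′ end, was called higher in NRF2 KO mice on both diets, by 0.83 on Con with the library labelled WT_CON_7607 and by 1.27 without it. Without that library Nfe2l2 was also called lower with MR in NRF2 KO mice (-0.31, adjusted p = 0.0162 in edgeR's test). Atf4, the transcription factor of the amino acid response, was called higher with MR in NRF2 KO mice (0.34, SE 0.09, adjusted p = 0.0126 in edgeR's test). In WT mice Atf4 was at 0.27 and not called, and its interaction, 0.07, was not called. Averaged over genotypes Atf4 was called higher with MR (0.31). No other regulator of the list was called in a comparison of single groups.

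**Figure D4:**
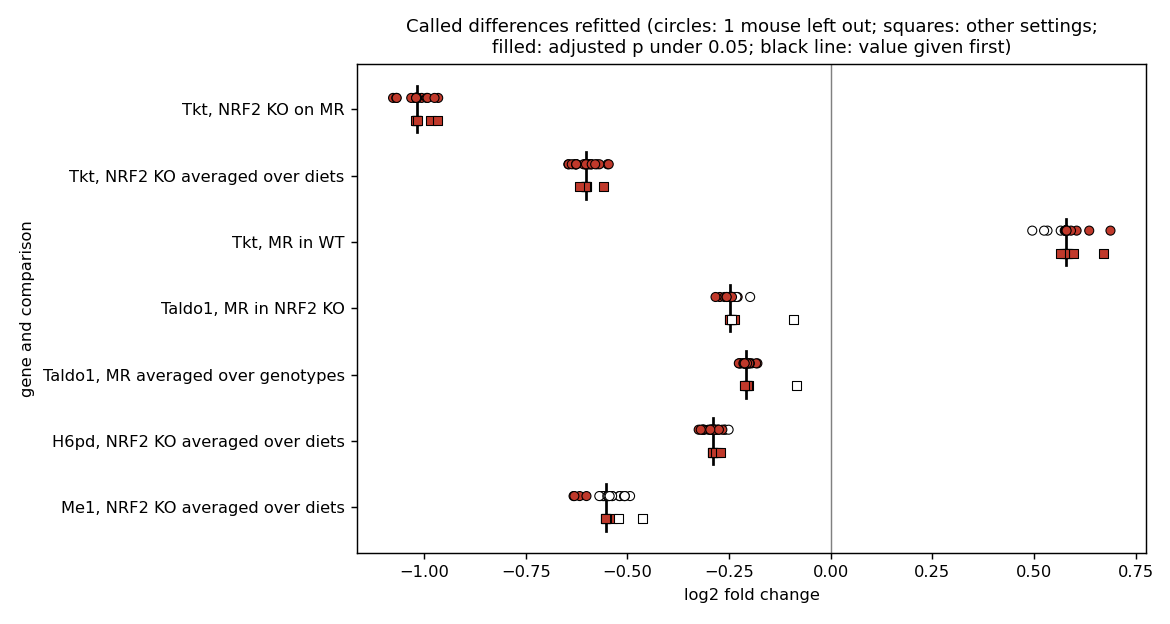
Log2 fold change (horizontal axis) of the 7 called values (vertical axis) when each of the 22 mice is left out (circles) and under the other settings (squares); filled points keep an adjusted p under 0.05 and black lines mark the values given first. Tkt for NRF2 KO on MR stays between -1.08 and -0.97 with all points filled, whereas Me1 for NRF2 KO averaged over diets is filled in 4 of 22 circles.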

How the data were processed

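Liver RNA of 24 male mice was sequenced as QuantSeq 3′ libraries, 1 per mouse. The deposited count values are raw reads for each gene, from version 2.3.6 (FWD) of Lexogen's pipeline for these kits, which the authors ran on Bluebee. The aligner, the annotation and the use of strand are not given in the sources used here. The submitters' processing notes name GRCm38 (mm10), R 3.4.3 and DESeq2 1.18.1. The normalized signal values, as deposited by the authors, are the same counts divided by 1 size factor per mouse. The files pair Ensembl identifiers with symbols, completed from GENCODE M21 (15119 of 15160 genes named).

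Raw counts were tested in R 4.3.3 with edgeR 4.0.16 (TMM, filter by expression, robust quasi-likelihood F-tests) in 1 model of the means of 4 groups, over 22 mice. The mice WT_CON_7604 and WT_MR_7612 were left out, as in the study. The 7 comparisons were MR in each genotype, NRF2 KO on each diet, their interaction, and both effects averaged. CPM use TMM library sizes, and log2 CPM a prior count of 2. Differences are model log2 fold changes with standard errors and 95% intervals that cover the spread between mice, and depth enters through the counts. No batch is given in the labels. No pair of libraries within a group agreed within sampling noise.

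The 7 enzymes and all gene lists were chosen with earlier results of these data known. The 7 enzymes are named whatever their values. From each other list the genes called in a comparison of single groups are named, up to 4 by smallest p, and for each enzyme the 2 genes with the highest Pearson r. Some genes that this rule names are not reported here, and list counts include them.

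Other settings tried were size factors of DESeq2 in place of TMM, library size scaling, no filter, a mean of at least 1 CPM, DESeq2 1.42.0, limma 3.58.1 on log2 of the deposited normalized signal plus a pseudocount of 1, only the groups compared, all 24 mice, an added fold threshold, and each mouse left out. The genes of the other lists were refitted without WT_CON_7607, a choice made after seeing the data. The scripts were tested on simulated data. Markers of 10 cell types were read as summed CPM. Promoter windows come from RefSeq. Python 3.11.15 and matplotlib 3.10.9 were used for the figures.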

Additional observations from a re-analysis of the deposited data

How the results depend on the processing

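Of the 1449 values of the 7 enzymes recomputed under other settings, 1364 kept both direction and side of the threshold, 38 lost a call, 17 gained one and 30 changed sign. Also requiring a size of 1 or more on the log2 scale left 0 enzymes called for MR in WT, MR in NRF2 KO, MR averaged over genotypes and NRF2 KO averaged over diets, and kept Tkt for NRF2 KO on MR. Scaling by library size alone, which moved the median of all genes by 0.087 in WT and 0.152 in NRF2 KO for MR, called 2 enzymes for MR in WT (Tkt and Idh1), 0 for MR in NRF2 KO, 2 for NRF2 KO on MR (H6pd and Tkt) and 2 for MR averaged over genotypes (Me1 and Idh1). DESeq2 called 2 for NRF2 KO on MR (H6pd and Tkt), and fitting only the groups compared called 3 (H6pd, Pgd and Tkt). All 24 mice called 0 for MR in NRF2 KO. For NRF2 KO averaged over diets, Me1 lost its call with no filter, with limma and with all 24 mice, where Pgd gained one. For the interaction and for NRF2 KO on Con, 0 enzymes were called under each setting run.

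Leaving out each mouse in turn gave 0 to 1 called enzymes for MR in WT, 0 to 1 for MR in NRF2 KO, 1 to 2 for NRF2 KO on MR, 1 to 2 for MR averaged over genotypes and 1 to 4 for NRF2 KO averaged over diets. For NRF2 KO on MR, H6pd joined Tkt without WT_CON_7608, WT_MR_7609, WT_MR_7615, KO_CON_7622 or KO_MR_7629. For MR averaged over genotypes, Taldo1 was joined by G6pdx without WT_CON_7605 and by Me1 without WT_MR_7609 or KO_CON_7621. NRF2 KO averaged over diets was lowest, with Tkt alone, without WT_CON_7602, WT_CON_7605, WT_MR_7611, WT_MR_7613 or KO_MR_7625, and highest without KO_CON_7621, where Pgd was called too.

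The values that changed sign were small and not called. Under library size scaling they were 0.0269 for Pgd with MR in WT, 0.0857 for H6pd and 0.15 for Idh1 with MR in NRF2 KO, and -0.0061 for Idh1 with NRF2 KO on Con. Idh1 with MR in NRF2 KO was 0.00051 with DESeq2, 0.0024 with limma and 0.00038 with all 24 mice, and ran from -0.0532 to 0.0279 without single mice. All 24 mice gave 0.0024 for Taldo1 with NRF2 KO on Con and, for G6pdx, -0.0504 with NRF2 KO on MR, -0.0891 for the interaction and -0.0058 for NRF2 KO averaged over diets. Without single mice, NRF2 KO on Con ran from -0.0752 to 0.00972 for Taldo1 and from -0.0364 to 0.0648 for Idh1, the interaction of Me1 from -0.212 to 0.0742, and MR averaged over genotypes from -0.00744 to 0.0662 for H6pd. Without WT_CON_7607, the interaction also changed sign for Slc25a11 (0.0127), Got1 (0.0251), Fdft1 (-0.0317) and Nfe2l2 (-0.0988). The cause was not tested.

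No paired analysis was possible because no mouse number is shared between groups. Depth limits G6pdx, whose 6 to 53 reads per library leave wide intervals.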

Other observations

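The mice left out of the comparisons were also measured. With all 24 mice scaled together, the left-out WT Con mouse (WT_CON_7604) had 73.3 CPM of Tkt, 88.6 CPM of Me1 and 356 CPM of Idh1, and the left-out WT MR mouse (WT_MR_7612) had 104 CPM of Tkt, 184 CPM of Me1 and 380.0 CPM of Idh1. Their G6pdx, at 3.67 and 4.24 CPM, lay above each of the 22 mice used, whose highest value was 3.18 CPM, and their Idh1 lay below each of the 22 mice, whose lowest value was 407 CPM. Their Pgd was at 47.0 and 54.4 CPM and their Taldo1 at 88.4 and 75.4 CPM. The values of H6pd, 145 and 182 CPM, lay within the ranges of the mice used.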
